A study of Mus musculus with 4 samples.

Results

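The enzymes that turn arachidonic acid into prostaglandins, thromboxane and leukotrienes were followed in the inferior vena cava of mice, with and without a stasis thrombus. A total of 10 genes were chosen by name: the cyclooxygenases Ptgs1 and Ptgs2, the terminal prostanoid synthases Ptgis, Ptges, Tbxas1 and Hpgds, and the lipoxygenase genes Alox5, Alox5ap, Alox12 and Alox15. Each was read from the brightest probe set whose platform annotation gives that symbol alone. This gave 9 of the 10 genes, 1 probe set each, among 18820 genes with such a probe set. Ptgs1 carried no such probe set in the annotation used here and was not analysed here. All 9 were among the 14115 genes kept, those whose mean log2 value reached the 25th percentile.

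The study compared wild-type mice with Cd39-null mice, which lack the ectonucleotidase CD39 encoded by Entpd1. Both had been bred back for at least 8 generations to C57BL/6J and were aged 8 to 10 weeks. The vein was tied off below the kidneys for 48 h, or it was dissected without a tie (sham). There were 4 groups, sham and ligated of either genotype, and each was 1 array carrying RNA pooled from 4 mice. The labels name males or females and complete or partial ligation without saying which applied to these pools. They also leave unsaid whether clot stayed in the pieces used for RNA. With 1 array a group, no difference between 2 arrays has a replicate check, and such differences are given as log2 values with no p. Precision is limited throughout by having so few arrays.

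The targeted gene did not follow its label on every array. Entpd1 had log2 values of 7.11 (sham) and 6.17 (ligated) in wild type, and 4.16 (sham) and 6.14 (ligated) under the Cd39-null label. The last array is therefore called by its label, the ligated array labelled Cd39-null, throughout, and both Cd39-null arrays together the knockout pair, and any direction drawn from it rests on the label. The wild-type pair does not use it. Of the markers that define the vein wall, 12 of 12 endothelial and 10 of 10 smooth muscle genes were kept, and each lay above background on every array, except the smooth muscle coactivator Myocd on the ligated array labelled Cd39-null. The sham arrays also differed in markers of other tissue. In Cd39-null, sham, against wild type, sham, adipocyte markers had a median log2 difference of 1.44 (6 of 9 at least 2-fold higher, with the brown fat gene Ucp1 at 5.57) and B cell markers of 1.97 (6 of 7 higher). Smooth muscle markers had a median of -1.53 (9 of 10 at least 2-fold lower) and endothelial markers of -1.04 (6 of 12 lower). In the knockout pair the adipocyte markers had a median ligation difference of -1.91 and the B cell markers of -2.22, beside 0.03 and -0.37 in wild type. The part of these tissues in the values of the enzymes that rest on this sham array was not tested. Background was set at the 95th percentile of 1006 olfactory receptor probe sets, which was 2.94 log2 (sham) and 2.66 (ligated) in wild type, and 2.97 (sham) and 2.68 (ligated) under the Cd39-null label.

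Arachidonic acid is freed from membrane lipids by phospholipases. Cyclooxygenases, constitutive in the case of Ptgs1 and inducible in the case of Ptgs2, convert it to prostaglandin H2. Terminal synthases then make prostacyclin (Ptgis), prostaglandin E2 (Ptges), thromboxane A2 (Tbxas1) or prostaglandin D2 (Hpgds). Arachidonate 5-lipoxygenase, encoded by Alox5, works with its activating protein, encoded by Alox5ap, to start leukotriene synthesis in leukocytes. Alox12 encodes the lipoxygenase of platelets, and Alox15 a related lipoxygenase of macrophages and eosinophils. In veins, prostacyclin from the wall restrains platelets, whereas thromboxane from platelets and macrophages activates them.

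The sequences before the annotated start are shown for 4 genes with different ligation patterns: Ptgs2, higher mainly in the knockout pair, Tbxas1, higher in both genotypes, Hpgds, higher in wild type, and Alox12, lower in wild type and higher in the knockout pair. These 4 were chosen after their values were seen. They come from RefSeq on build GRCm38.p6, whose promoter table held 7 of the 10 genes. Each is the 250 bases before the start, 5′ to 3′ on the strand of the gene, with matches to the motifs searched in capitals. The windows lie at chr1:150099781-150100030 on the plus strand for Ptgs2, chr6:38918736-38918985 on the plus strand for Tbxas1, chr6:65144731-65144980 on the minus strand for Hpgds, and chr11:70255371-70255620 on the minus strand for Alox12.
Ptgs2: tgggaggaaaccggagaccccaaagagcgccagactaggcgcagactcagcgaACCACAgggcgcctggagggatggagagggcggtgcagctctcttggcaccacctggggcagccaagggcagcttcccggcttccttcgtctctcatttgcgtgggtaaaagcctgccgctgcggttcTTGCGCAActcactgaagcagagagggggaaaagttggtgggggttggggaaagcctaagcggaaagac
Tbxas1: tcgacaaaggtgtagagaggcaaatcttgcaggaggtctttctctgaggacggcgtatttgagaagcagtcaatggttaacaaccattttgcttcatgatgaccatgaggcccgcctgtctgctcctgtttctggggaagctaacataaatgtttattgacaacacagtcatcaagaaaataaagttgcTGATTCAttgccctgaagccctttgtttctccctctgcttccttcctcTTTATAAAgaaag
Hpgds: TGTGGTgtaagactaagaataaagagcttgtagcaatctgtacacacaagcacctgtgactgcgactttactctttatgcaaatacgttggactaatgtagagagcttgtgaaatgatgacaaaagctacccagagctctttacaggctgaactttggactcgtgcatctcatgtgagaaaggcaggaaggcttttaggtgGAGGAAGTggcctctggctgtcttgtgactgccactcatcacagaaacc
Alox12: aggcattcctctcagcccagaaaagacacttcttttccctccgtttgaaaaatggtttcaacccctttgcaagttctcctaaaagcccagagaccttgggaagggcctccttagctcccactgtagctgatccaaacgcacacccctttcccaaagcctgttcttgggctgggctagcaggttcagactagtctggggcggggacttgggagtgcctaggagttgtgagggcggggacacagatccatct
A further run of 30 bases from the annotated start of Ptgs2 (chr1:150100031-150100060) holds overlapping matches to a cyclic AMP response core and an E-box.
Ptgs2 after the start: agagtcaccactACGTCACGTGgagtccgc

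In all, 10 motifs were searched on both strands over 250 bases before to 50 bases after each start, and they were chosen after the promoter sequences of these genes had been seen, so that a match here is not evidence for a motif. Shares in parentheses give how many of the 32851 windows of the table hold the motif on either strand. The TATA box was searched as TATAAA (13.6%). The cyclic AMP response core was searched as TGACGT (7.51%). For the E-box the letters were CACGTG (7.15%), and for the C/EBP palindrome TTGCGCAA (0.183%). NF-kB was searched by its usual consensus (8.46%). Among motifs of blood cell factors, PU.1 was GAGGAAGT (3.20%), GATA was AGATAA (11.2%) and RUNX was TGTGGT (16.8%). The ETS motif was CAGGAAGT (3.33%) and the AP-1 motif TGANTCA (7.81%). In Ptgs2 the capitals mark RUNX and C/EBP letters before the start, and the core and E-box after it share bases. In Tbxas1 they mark AP-1 letters and 2 overlapping TATA box matches, 1 on each strand. In Hpgds they mark RUNX and PU.1 letters. The Alox12 window held none of the 10 motifs. These are matches of letters and say nothing of binding.

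In wild type, 5 of the 9 measured enzymes were at least 2-fold higher in the ligated than in the sham vein, Hpgds, Alox5ap, Tbxas1, Alox5 and Ptges, and 1 was lower, Alox12. Of all 14115 genes, 6.6% were at least 2-fold higher and 3.63% at least 2-fold lower in this pair. The median of the 9 log2 differences was 1.05, beside -0.01 for all kept genes. In the knockout pair, 5 enzymes were at least 2-fold higher, Alox12, Ptgs2, Alox5ap, Tbxas1 and Alox5, and 0 were lower. The background was 10.9% higher and 5.8% lower, and the medians were 2.08 for the enzymes and 0.03 for all kept genes. With wild type, sham, in place of Cd39-null, sham, as the reference, 5 enzymes were again at least 2-fold higher and 0 lower, against 9.52% and 6.58% of all genes. After either quantile normalisation or cyclic loess of the deposited values, 5 enzymes were higher and 1, Hpgds, lower in this pair, and the background was 7.92% higher and 7.45% lower with quantile normalisation. With all arrays centred on their median over kept genes, which shifted the median difference of all genes by -0.13 in this pair and by -0.09 in wild type, Ptges fell short of 2-fold in wild type, at 0.96.

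**Figure D1:**
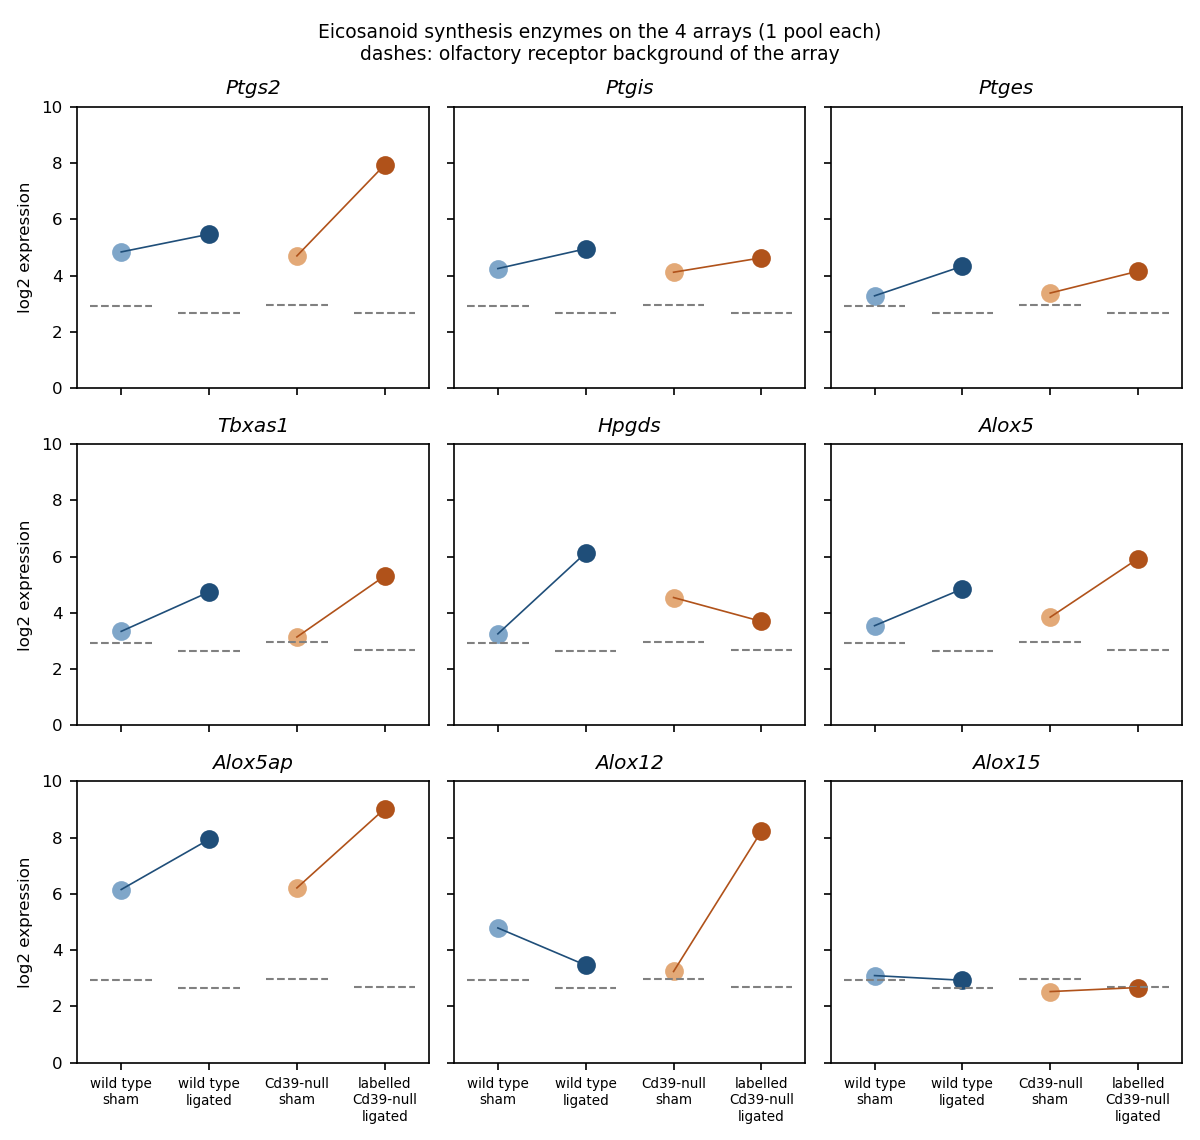
Log2 expression (vertical axis) of the 9 measured enzymes on the 4 arrays (horizontal axis), 1 panel a gene; each point is 1 array of pooled RNA, lines join sham and ligated of a genotype, and dashes mark the background of that array. Ptgs2 and Alox12 stand highest on the ligated array labelled Cd39-null (7.95 and 8.23), Hpgds in wild type, ligated (6.14), and Alox15 lies at or near the dashes on every array.

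Ptgs2, the inducible cyclooxygenase, had log2 values of 4.85 (sham) and 5.48 (ligated) in wild type, and 4.71 (sham) and 7.95 (ligated) under the Cd39-null label. The sham arrays lay close together, wild type, ligated, slightly above them, and the labelled knockout array far above all others. Ligation thus went with a log2 difference of 0.63 in wild type and 3.24, or 9.45-fold, in the knockout pair, where Ptgs2 ranked 65th from the highest of 14115 genes. Between the ligated arrays it was 5.54-fold higher on the one labelled Cd39-null (log2 difference 2.47).

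Among the terminal synthases, Ptgis and Ptges were modestly higher after ligation in both genotypes. Ptgis, the prostacyclin synthase of endothelial and smooth muscle cells, had log2 values of 4.26 (sham) and 4.96 (ligated) in wild type, and 4.12 (sham) and 4.64 (ligated) under the Cd39-null label. Both ligated arrays stood above both sham arrays, by 0.70 and 0.51 log2 within the genotypes, which is under 2-fold. Counted from the highest of 14115 genes, these differences ranked 1741 in wild type and 3489 in the knockout pair. The knockout difference was 0.30 after quantile normalisation and 0.31 after cyclic loess. Endothelial markers had median differences of -1.24 and 0.19 in these pairs and smooth muscle markers of -0.61 and -0.55. Their part in the Ptgis values was not tested.

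Ptges, the inducible microsomal prostaglandin E synthase, had values of 3.29 (sham) and 4.34 (ligated) in wild type, and 3.38 (sham) and 4.16 (ligated) under the Cd39-null label. Here too the ligated arrays lay above the sham arrays, with differences of 1.05 and 0.78. The genotypes were within 0.18 log2 of each other in either surgery. The constitutive prostaglandin E synthases had negative differences of less than 2-fold, with Ptges3 at -0.39 and -0.32 and Ptges2 at -0.33 and -0.21. Ptges2 had values of 3.05, 2.72, 2.97 and 2.76 on the arrays in the same order, beside backgrounds of 2.94, 2.66, 2.97 and 2.68. Its differences are therefore between values near background.

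Tbxas1, the thromboxane synthase of platelets and macrophages, had values of 3.35 (sham) and 4.75 (ligated) in wild type, and 3.15 (sham) and 5.32 (ligated) under the Cd39-null label. It lay just above background on both sham arrays and well above it on both ligated arrays. The ligation differences were 1.40 (2.64-fold) and 2.17 (4.50-fold). Platelet and megakaryocyte markers, of which 9 of 12 were kept, had median differences of -1.08 and 3.91, and monocyte and macrophage markers, 11 of 12 kept, of 2.17 and 1.72. In wild type the platelet median was negative and the macrophage median positive. In the knockout pair both were positive, and the platelet median was the larger. The part of either cell type in the Tbxas1 values was not tested.

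Hpgds, the hematopoietic prostaglandin D synthase known from mast cells, macrophages and T helper cells, had the largest ligation difference of the 9 enzymes in wild type. Its log2 values were 3.26 (sham) and 6.14 (ligated) in wild type, and 4.55 (sham) and 3.70 (ligated) under the Cd39-null label. The wild-type difference of 2.88, or 7.36-fold, was the 12th highest of all 14115 genes, whereas the knockout difference was -0.85. In sham veins Hpgds was 2.45-fold higher in the knockout, and in ligated veins it was 5.42-fold lower on the array labelled Cd39-null (log2 difference -2.44), the 10th lowest of all genes. The sign in the knockout pair depends on its sham array: set against wild type, sham, a reference chosen after seeing the data, the difference was 0.44. That sham array differed from wild type, sham, in several marker lists, some of them given above. Adipocyte, B cell, T and NK cell (0.81) and neutrophil (0.92) medians were higher, and smooth muscle, endothelial and platelet (-0.92) medians lower. Mast cell and macrophage medians differed less, at 0.30 and 0.22.

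The cell markers beside Hpgds did not all share its pattern. Of 12 mast cell markers 7 were kept, with median differences of 0.23 in wild type and -0.32 in the knockout pair. Of these, 3 or 4 were at or under background on each array. Among the mast cell genes Cpa3 was at -0.88 and -2.17, Mcpt4 at 0.92 and -0.81, and Kit at 1.39 and 1.13. Mcpt4 lay under background in wild type, sham (2.79), and on the ligated array labelled Cd39-null (2.37), so each of its differences rests on such a value. Hdc, the histamine-forming enzyme on that list, was above background on every array, at 0.08 and 3.61, the largest difference of the list in the knockout pair, where Hpgds was at -0.85. Of the macrophage markers, Mrc1 (2.11 and 0.37), Adgre1 (2.00 and 0.46) and Csf1r (2.37 and 1.29) had larger differences in wild type, and Msr1 (2.70 and 3.78) and Itgam (2.17 and 3.65) larger ones in the knockout pair. Of 11 macrophage markers, 10 were at least 2-fold higher in wild type and 9 in the knockout pair. The part of these cells in the Hpgds values was not tested, and in whole tissue a change in cell number cannot be told apart from a change in RNA per cell.

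**Figure D2:**
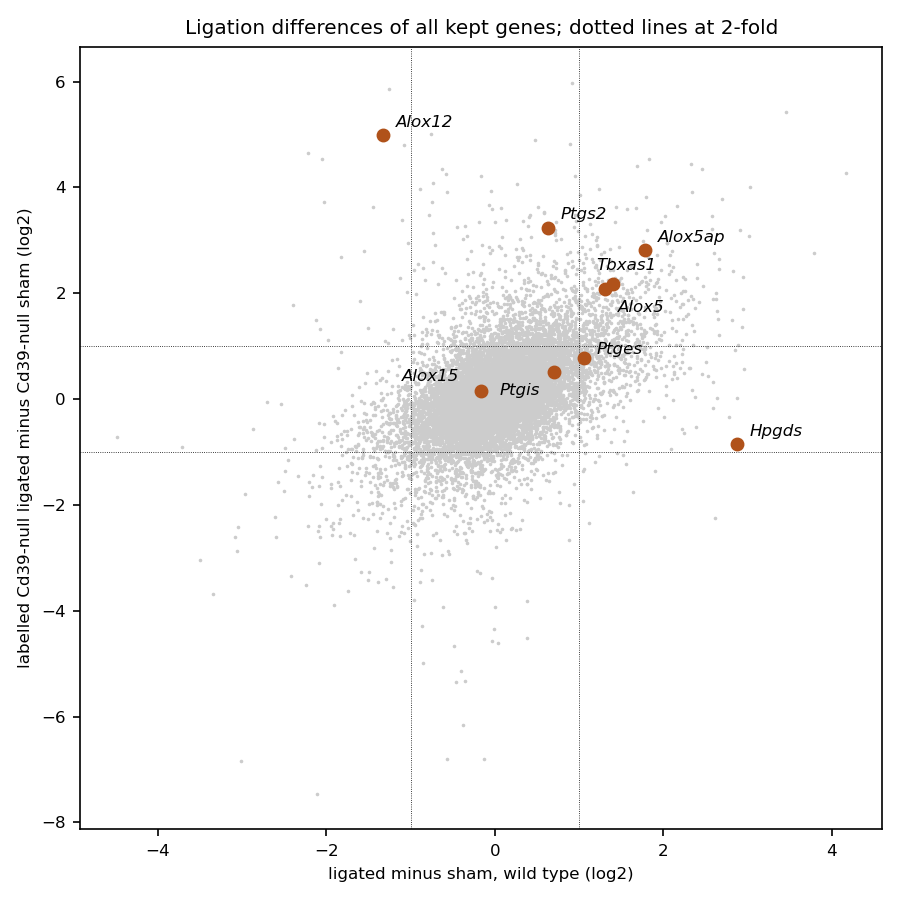
Ligated minus sham log2 difference in wild type (horizontal axis) against that in the knockout pair (vertical axis) for the 14115 kept genes (grey) and the 9 enzymes (labelled); dotted lines mark 2-fold. Alox5ap, Tbxas1 and Alox5 lie beyond 2-fold on both axes, Alox12 is at -1.32 and 4.99, and Hpgds at 2.88 and -0.85.

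Alox5 and Alox5ap, which start leukotriene synthesis, were at least 2-fold higher after ligation in both genotypes. Alox5ap, the protein that presents arachidonic acid to 5-lipoxygenase, was the brightest of the 9 by mean log2 value, although levels of different probe sets are not strictly comparable. It had values of 6.16 (sham) and 7.94 (ligated) in wild type, and 6.22 (sham) and 9.03 (ligated) under the Cd39-null label. The sham arrays differed by 0.06 log2, and both ligated arrays lay above them by 1.78 (3.44-fold) and 2.82 (7.04-fold). Alox5 itself had values of 3.55 (sham) and 4.86 (ligated) in wild type, and 3.85 (sham) and 5.94 (ligated) under the Cd39-null label. Its ligation differences were 1.31 (2.48-fold) and 2.08 (4.24-fold), so the order of the 4 arrays was the same for both partners. On the ligated arrays Alox5 and Alox5ap were 2.11-fold and 2.13-fold higher in the one labelled Cd39-null.

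The markers of neutrophils and macrophages are given beside this pair of genes. Neutrophil markers, 11 of 12 kept, had median differences of 0.03 in wild type and 0.95 in the knockout pair. At least 2-fold higher were 2 of the 11 in wild type and 5 in the knockout pair, where 1 was lower. Between the ligated arrays, 9 of the 11 were at least 2-fold higher on the one labelled Cd39-null (median 2.41). Of the macrophage markers 2 were higher and 2 lower there (median -0.25). Csf3r (1.83 and 4.54) and Cxcr2 (1.67 and 2.39) were at least 2-fold higher in both, while S100a8 was at -0.66 and -0.17 and Retnlg at 0.06 and 0.95. Mmp9 (0.95 and 4.22), Trem1 (-0.63 and 4.35) and Mmp8 (-0.11 and 2.08) were at least 2-fold higher in the knockout pair alone. S100a8 and S100a9 were the brightest neutrophil markers on every array and weigh most in a summed level. The log2 of the summed neutrophil level was 10.27 (sham) and 10.08 (ligated) in wild type, and 11.35 (sham) and 12.05 (ligated) under the Cd39-null label. For macrophage markers it was 9.05, 11.22, 9.37 and 11.27 in the same order, and none of the 11 kept was at background on any array. Their part in the Alox5 and Alox5ap values was not tested.

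Alox12, the platelet lipoxygenase, had ligation differences of opposite sign in the genotypes. Its log2 values were 4.79 (sham) and 3.47 (ligated) in wild type, and 3.24 (sham) and 8.23 (ligated) under the Cd39-null label. It was thus 2.51-fold lower after ligation in wild type (-1.32) and 31.7-fold higher in the knockout pair (4.99), the fifth highest difference of all genes there. In sham veins it was 2.92-fold lower in the knockout, and in ligated veins 27.2-fold higher on the array labelled Cd39-null. On the deposited values it was the only enzyme at least 2-fold apart in opposite directions in the genotypes, against 0.269% of all genes. Hpgds was so too after quantile normalisation (2.83 and -1.01) or cyclic loess (2.80 and -1.04). Set against wild type, sham, Alox12 was higher by 3.44 on the ligated array labelled Cd39-null.

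All 9 kept platelet and megakaryocyte markers were at least 2-fold higher in the knockout pair, by 2.14 to 5.86, and 5 were at least 2-fold lower in wild type. Clec1b (-2.21 and 4.65), Gp9 (-1.08 and 4.81), Tubb1 (-1.26 and 5.86) and Ppbp (-1.44 and 3.64) had the signs of Alox12, negative in wild type and positive in the knockout pair, whereas Pf4 was at 0.49 and 2.14. The log2 of the summed platelet level was 9.77 (sham) and 9.18 (ligated) in wild type, and 8.00 (sham) and 11.42 (ligated) under the Cd39-null label, and 2 markers, Itga2b and Tubb1, were at or under background in Cd39-null, sham. The part of platelets in the Alox12 values was not tested.

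Alox15 was the dimmest of the enzymes. It had values of 3.10 (sham) and 2.93 (ligated) in wild type, and 2.53 (sham) and 2.67 (ligated) under the Cd39-null label, and it was at or under background on both Cd39-null arrays. Its ligation differences of -0.17 and 0.14 are therefore differences between values at or near background. In GRCm38.p6 it lies next to Alox12 on chromosome 11, with 4 annotated genes between them, none of which was among the kept genes.

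**Figure D3:**
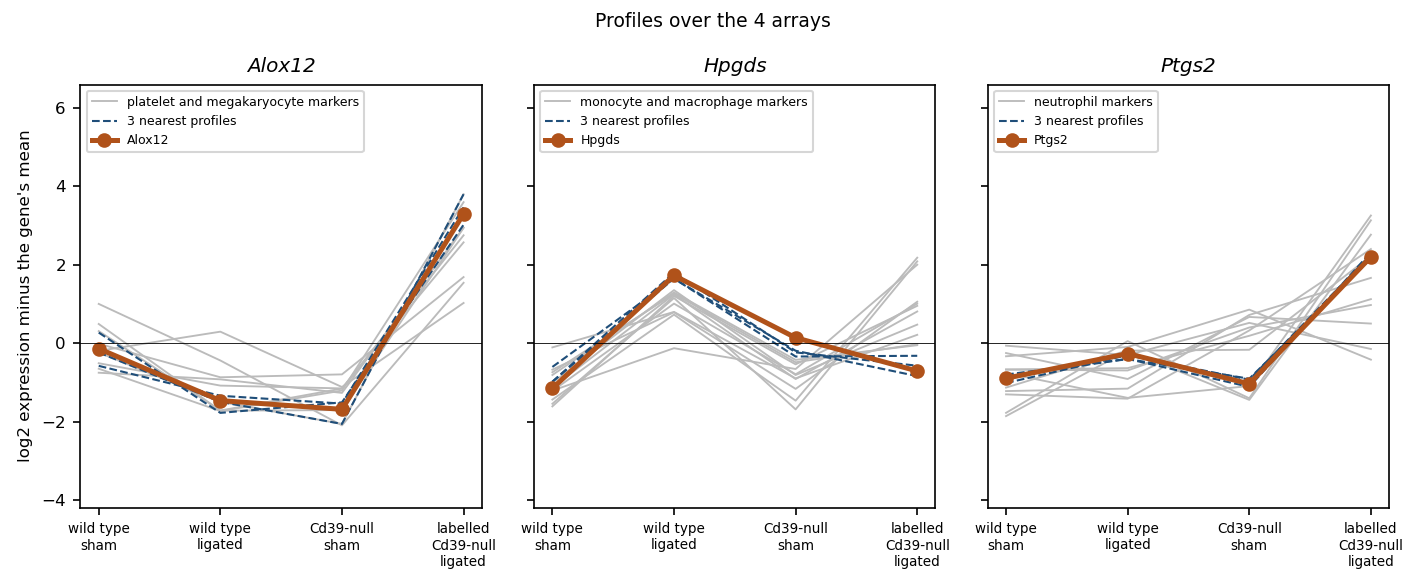
Log2 expression minus the gene's own mean (vertical axis) over the 4 arrays (horizontal axis) for Alox12, Hpgds and Ptgs2 (thick lines), the 3 genes with the nearest profile (dashed) and the kept markers of 1 cell type (grey: 9 platelet, 11 macrophage and 11 neutrophil markers). Alox12 runs among the platelet markers on all arrays, Hpgds lies below the macrophage markers on the ligated array labelled Cd39-null, and neutrophil markers spread widely around Ptgs2.

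For the 6 enzymes whose log2 values spanned at least 2 over the arrays, the 3 nearest of the other kept genes were found by Euclidean distance between profiles centred on their mean over 4 arrays, as a description. Nearest to Ptgs2 were Smox, which oxidises spermine (distance 0.17), the hypoxia-inducible lipid droplet gene Hilpda (0.20) and Pram1 (0.22). Nearest to Alox12 were F5, coagulation factor V (0.51), the platelet receptor Mpig6b (0.61) and the platelet tubulin Tubb1 (0.63). Nearest to Hpgds were Ly86, a partner of an endotoxin receptor homologue (0.44), the carbonyl reductase Cbr2 (0.64) and the lipopolysaccharide-degrading Aoah (0.66). Alox5ap ran closest to the metalloproteinase Mmp19 (0.10), the plasminogen activator inhibitor Serpinb2 (0.11) and Pgd of the pentose phosphate pathway (0.22). Tbxas1 had Nek6, Cmtm6 and Clic1 (0.05 to 0.09) and Alox5 had Arhgap45, Gadd45b and Gla (0.11 to 0.13). A profile has 4 points here, 1 an array.

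Without ligation 2 of the 9 enzymes were at least 2-fold apart between the genotypes, against 6.48% of all genes, and 7 were less than 2-fold apart. The same arrays differed in markers of the vein wall and of other tissue, as given above. Between the sham arrays, 1 of 9 was at least 2-fold higher in the knockout, Hpgds (1.29), and 1 lower, Alox12 (-1.55), against 2.95% and 3.54% of all genes. These 7 were within 0.57 log2, the farthest being Alox15 at background. Between the ligated arrays, 4 were at least 2-fold higher on the one labelled Cd39-null, Alox12 (4.76), Ptgs2 (2.47), Alox5ap (1.09) and Alox5 (1.08), and 1 was lower, Hpgds (-2.44). The background was 3.61% higher and 2.66% lower. Ptgis, Ptges and Alox15 differed by -0.32 to -0.18, and Tbxas1 by 0.57. The knockout minus wild-type difference of the ligation differences was at least 2-fold in size for 4 of 9, Alox12 (6.31), Ptgs2 (2.61), Alox5ap (1.03) and Hpgds (-3.73), against 12.5% of all genes. Each genotype comparison shares its arrays with a ligation comparison, so these values do not add independent evidence.

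Higher in both genotypes by at least 2-fold were 3 of 9 enzymes, Alox5ap, Tbxas1 and Alox5, against 3.63% of all genes; the pairs share no array. When limma was fitted to all 14115 genes with genotype and ligation as additive terms, 0 of 9 enzymes passed an adjusted p of 0.05 for ligation, as did 0 genes in all. Before adjustment 6 of 9 had a p under 0.05, against 21.0% of all genes. The mean ligation difference was 2.30 ± 0.33 (SE) for Alox5ap, 1.78 ± 0.28 for Tbxas1 and 1.70 ± 0.28 for Alox5, with limma adjusted p of 0.0952, 0.0959 and 0.0983. For Ptges it was 0.92 ± 0.23 (limma adjusted p 0.144), for Ptgs2 1.94 ± 0.64 (0.200) and for Ptgis 0.61 ± 0.23 (0.231). Alox12, Hpgds and Alox15 had limma adjusted p of 0.522, 0.553 and 0.982. For genotype, limma passed 0 of 9 and 0 of 14115 genes; 0 of 9 enzymes and 6.94% of all genes had an unadjusted p under 0.05. The fit has 1 residual degree of freedom and treats unequal responses of the genotypes as error, so its p-values measure how alike the array pairs were, not the spread between mice.

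The rest of the pathway was read from 62 listed genes, of which 44 were kept. In wild type 4 of 44 were at least 2-fold higher after ligation and 1 lower, and in the knockout pair 9 were higher and 2 lower. As shares these are 9.09% and 2.27% in wild type, beside 6.6% and 3.63% of all genes, and 20.5% and 4.55% in the knockout pair, beside 10.9% and 5.8%. Their median differences were 0.01 and -0.03, close to those of all kept genes. Higher in both were Pla2g7, Akr1b8 and Cysltr1, against 3.63% of all genes, and lower in both was Hpgd, against 1.45%. Adjusted over all genes, limma passed 0 of the 44 for ligation, and 11, or 25%, had an unadjusted p under 0.05, beside 21.0% of all genes.

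Upstream of the cyclooxygenases, 12 of 18 genes for arachidonate release were kept. The cytosolic phospholipase Pla2g4a, which frees arachidonic acid, was at 0.18 in wild type and 1.79 in the knockout pair, with values of 4.80, 4.97, 3.89 and 5.68 on the arrays in the order given above. Pla2g7, which inactivates platelet-activating factor rather than freeing arachidonic acid, was higher by 1.36 and 1.48. Pla2g2d (-0.51 and -0.93) and Pla2g15 (0.65 and 0.41) stayed under 2-fold. Of 5 kept genes listed as other prostanoid synthases, the aldo-keto reductase Akr1b8 was higher by 1.79 and 2.14, and the remaining 4 were within 2-fold. Whether Akr1b8 itself makes a prostanoid was not tested.

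Downstream in the leukotriene arm, Lta4h, which makes leukotriene B4, was at 0.25 and -0.07. Ltc4s, which makes leukotriene C4, was higher by 1.01 in wild type and 0.35 in the knockout pair. Dpep2, a dipeptidase that converts leukotriene D4 to E4, was at 0.78 and 3.03, with 6.96 on the ligated array labelled Cd39-null, against 3.92 to 5.20 on the others. Ggt5, which cleaves leukotriene C4, was at 0.32 and 1.40. The glutathione transferases Mgst2 (-0.62 and -0.99) and Mgst3 (0.58 and -0.81) and the dipeptidase Dpep1 (-0.60 and -0.57) were within 2-fold. Thus 2 of the 8 kept genes of this list were at least 2-fold higher in the knockout pair, where 10.9% of all genes were, and 1 in wild type, where 6.6% were. The medians of the list were 0.29 in wild type and -0.22 in the knockout pair.

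Among genes of breakdown and transport, Hpgd, which inactivates prostaglandins, was lower after ligation in both genotypes. Its log2 values were 6.18 (sham) and 5.16 (ligated) in wild type, and 5.31 (sham) and 3.82 (ligated) under the Cd39-null label, which gives differences of -1.02 and -1.49. Cyp4f18, which hydroxylates leukotriene B4 in neutrophils, was at 0.39 in wild type and 3.28 in the knockout pair and stood at 6.28 on the ligated array labelled Cd39-null, against 2.91 to 3.30 on the others. Of the export pumps, Abcc1 was at 0.67 and 1.36 and Abcc4 at -0.98 and -0.13.

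Of 5 kept leukotriene and lipid mediator receptors, 1 was at least 2-fold higher after ligation in wild type and 2 in the knockout pair. The shares of all genes were 6.6% and 10.9%. Cysltr1, a receptor for cysteinyl leukotrienes, was higher by 1.16 and 1.84, and Ltb4r1, the leukotriene B4 receptor of leukocytes, by 0.60 and 1.43. Of 6 kept prostanoid receptors, 0 were at least 2-fold higher in either pair, beside the same shares of all genes. With so few genes a list, these counts do not set the receptor lists apart. The prostaglandin E2 receptor Ptger3 was at -0.43 and -1.33. Ptger4 was at -0.47 and -0.73, and Ptgfr and Ptger2 lay above background on 1 array each. The median of the prostanoid receptors was -0.16 in wild type and -0.62 in the knockout pair. For the 5 kept leukotriene and lipid mediator receptors it was 0.60 and 0.05, so the median of that list was near 0 in the knockout pair although 2 of its members were at least 2-fold higher there.

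**Figure D4:**
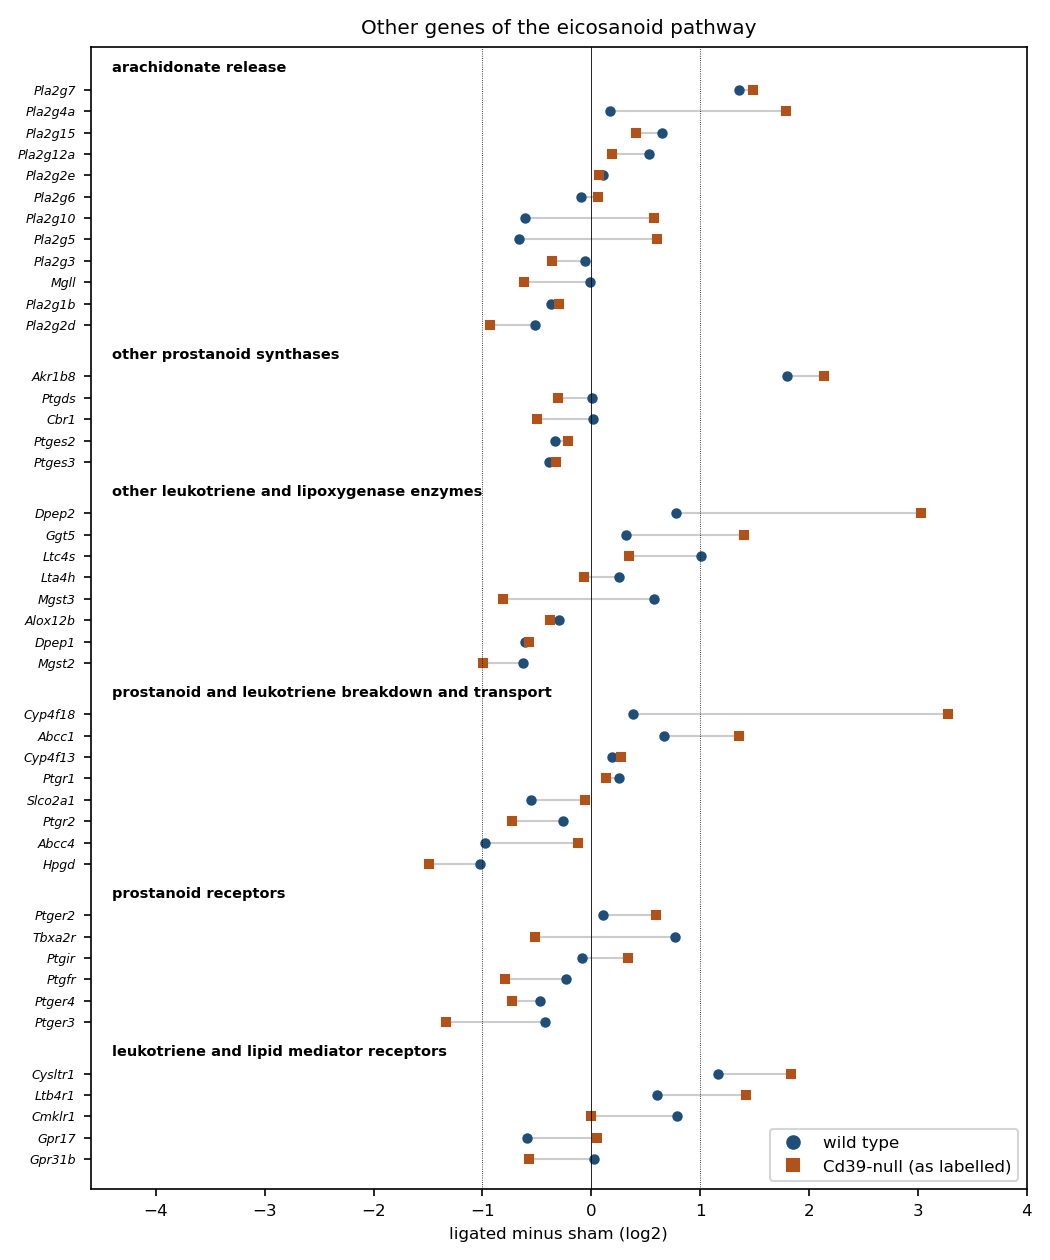
Ligated minus sham log2 difference (horizontal axis) of the 44 kept genes of the rest of the pathway (rows, grouped by role) in wild type (circles) and in the knockout pair (squares); dotted lines mark 2-fold. Pla2g7, Akr1b8 and Cysltr1 lie beyond 2-fold on the higher side in both genotypes and Hpgd on the lower side, while Dpep2 and Cyp4f18 are at 3.03 and 3.28 in the knockout pair and at 0.78 and 0.39 in wild type.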

How the data were processed

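Total RNA of the inferior vena cava was extracted with Trizol, amplified from 50 ng, and 3 µg of biotinylated cDNA was hybridised to an Affymetrix array, per the labels' protocols; the design text states that 4 mice were pooled for each array. The authors deposited log2 expression values, which came from RMA in oligo according to the submitters' processing notes, with no version given. RMA equalises the arrays, so a global shift in RNA content would be hidden. No depth applies to arrays.

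Of 35556 probe sets, 21218 carried 1 symbol. The brightest per gene by mean over the 4 arrays was used, and genes with a mean under the 25th percentile (2.29) were left out. A gene counted as apart at 2-fold. The additive model used limma 3.58.1 (lmFit, eBayes) in R 4.3.3 with Benjamini-Hochberg adjustment. A run on simulated data checked only that known ligation effects were recovered on average. Those data held no unequal responses of the genotypes, so the run says nothing of the p-values where responses differ. All 9 enzymes were named; of each pathway list up to 4 genes with the largest mean ligation difference, the nearest profiles, genes needed for counts of 5 or fewer, and markers and synthases chosen after their values were seen. Members and lists were chosen with earlier results of these data known, and motifs and promoters shown after sequences and values were seen. Alternatives were other scalings, probe set rules, fold sizes, filters and models, and wild type, sham, as the reference, the last added after seeing the data.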

Additional observations from a re-analysis of the deposited data

Results flagged for a closer look

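Of the 9 enzymes, 3 had ligation differences of opposite sign in the genotypes, as did 31.5% of all kept genes. Alox12 was at -1.32 log2 in wild type and 4.99 in the knockout pair, Hpgds at 2.88 and -0.85, and Alox15, at or near background, at -0.17 and 0.14. With 1 array a group the difference between the genotypes was not tested for these or the genes that follow. Every knockout value rests on the ligated array labelled Cd39-null, whose Entpd1 level (6.14) goes against that label, and the knockout signs of Hpgds and Alox15 rest on Cd39-null, sham, as their reference.

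Other named genes had opposite signs too. Among the platelet markers were Clec1b (-2.21 and 4.65), Gp9 (-1.08 and 4.81), Tubb1 (-1.26 and 5.86), Ppbp (-1.44 and 3.64) and Itga2b (-0.17 and 4.22). Gp5 (-2.03 and 3.73), Itgb3 (-0.57 and 3.91) and Treml1 (-0.85 and 2.48) had the same signs, and Pf4 did not. Of the neutrophil markers named, Trem1 was at -0.63 and 4.35, Mmp8 at -0.11 and 2.08, and S100a9 at -0.02 and 0.57. Of the nearest profiles of Alox12, F5 was at -0.76 and 5.01 and Mpig6b at -2.05 and 4.53, and of those of Hpgds, Ly86 was at 2.78 and -0.34 and Aoah at 2.25 and -0.65. These profiles were chosen for their likeness, so their signs are no further evidence. Mcpt4 was at 0.92 and -0.81, and each of these differences rests on a value under background. Lta4h was at 0.25 and -0.069, Mgst3 at 0.58 and -0.81, and Entpd1 at -0.94 and 1.98. No group held enough arrays to look for an array far from the rest of its group.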

How the results depend on the processing

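Most counts of enzymes moved with the size of difference asked for. At 3-fold in place of 2-fold, 2 enzymes were apart by ligation in wild type and 5 in the knockout pair, the last as at 2-fold. By genotype 0 were apart in sham veins and 3 in ligated veins, and 1 enzyme was higher after ligation in both genotypes. At 1.5-fold, 5 were higher in both. The share of all genes at these sizes was not computed, so these counts have no background beside them. Of 36 differences of single enzymes, 35 kept their direction and side of 2-fold under each of quantile normalisation, cyclic loess and centring, 35 with values raised to background and 36 with the mean of all probe sets; the exceptions were Hpgds in the knockout pair (-1.01 and -1.04 with the first 2), Ptges in wild type (0.96 with centring) and Alox15 in the knockout pair. Raised to background, Alox15 turned to -0.29, which is the difference between the backgrounds of those arrays. With wild type, sham, as the reference, 7 of 9 differences kept their direction and side, while Hpgds turned to 0.44 and Alox15 to -0.42; their values above rest on Cd39-null, sham. Limma passed 0 of 9 enzymes for ligation and for genotype under every filter, prior, scaling and model tried, with smallest adjusted p over all genes of 0.0556 to 0.116 for ligation. Which enzymes had an unadjusted limma p under 0.05 for ligation did depend on the setting. Ptgis was not under it after quantile normalisation or cyclic loess, nor with the stricter filter or the other prior. Ptgs2 was not under it in the model without genotype. The additive fit compares ligation within genotype. No block by replicate number could be added and no replicate left out, since each group is 1 array. Differences between values near background, such as those of Alox15, are also limited by signal.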
